A study of Mus musculus with 18 samples.

Results

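Embryoid body outgrowths that mouse embryonic stem cells had formed by day 21 of differentiation were compared between cells labelled Pax7-/- and cells labelled Pax7+/+. The comparison took the day 21 arrays of each genotype, 6 of the 18 arrays in the series, and 22180 genes with 1 probe set each, the probe set of highest mean over all arrays being kept. The Pax7-/- outgrowths and the Pax7+/+ outgrowths had 3 arrays each, labelled as biological replicates. Cells of both genotypes were of the F1 strain C57Bl6N x 129Sv, both had been grown as stem cells with LIF, a cytokine that holds mouse stem cells undifferentiated, and both were then cultured without LIF and with retinoic acid (RA) and ITS, a medium supplement. The other arrays, 3 per genotype of undifferentiated cells at day 0 and of embryoid bodies at day 7, entered the fit and served to ask whether a difference at day 21 was already there. The labels name no clone, no number of independent cell lines and no age or sex, so p-values measure only the spread between these samples.

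Pax7 encodes a transcription factor with a paired domain and a homeodomain, known for its part in muscle satellite cells, neural crest and dorsal neural tube. Embryonic stem cells that aggregate without LIF form embryoid bodies, with an outer layer of primitive endoderm and an inner mass that gives rise to derivatives of the germ layers. Retinoic acid in the medium favours neural and endodermal fates. After plating, the bodies spread into outgrowths, a mixture of cell types that is measured here as bulk RNA. In such bulk samples fewer cells of a type and less RNA per cell cannot be told apart.

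The deposited values are log2 intensities after RMA, a method that corrects background, brings arrays to a common distribution and summarises the probes of a probe set. The arrays nevertheless fell into 2 sets by the standard deviation (SD) of their values over all probe sets. The SD lay between 1.366 and 1.447 log2 on 10 arrays, here the narrow set, and between 1.793 and 1.848 log2 on 8 arrays, here the wide set. At day 21 Pax7-/- replicate 1 was narrow and replicates 2 and 3 were wide, whereas Pax7+/+ replicates 1 and 3 were narrow and replicate 2 was wide. The array set was therefore a term of the fit, and each set held a lone array of 1 genotype. Within each set the Pax7-/- arrays had the larger SD, 1.411 against 1.373 and 1.366 on narrow arrays and 1.819 and 1.812 against 1.793 on wide arrays. Of the genes used to check the days, Nanog, a stem cell factor, read 9.43 to 10.31 at day 0, 6.67 to 9.04 at day 7 and 5.86 to 8.03 at day 21 in Pax7-/-, and 9.12 to 9.97, 8.76 to 9.84 and 5.24 to 5.71 in Pax7+/+. It was therefore lower at day 21 than at day 0 in both genotypes without overlap. Ttr, which encodes transthyretin of visceral endoderm and liver, read 5.71 to 7.92 at day 0, 8.50 to 8.78 at day 7 and 7.71 to 8.27 at day 21 in Pax7-/-, and 6.24 to 7.63, 7.85 to 8.13 and 8.61 to 9.62 in Pax7+/+, so days 0 and 21 overlapped in Pax7-/-. The stem cell gene Dppa5a and Acta2, smooth muscle actin, overlapped between days 0 and 21 in both genotypes. Below, 3 values of a genotype are in the order narrow, wide, wide for Pax7-/- (replicates 1, 2, 3) and narrow, narrow, wide for Pax7+/+ (replicates 1, 3, 2), and "apart" means that the genotypes did not overlap within either set. A difference is Pax7-/- minus Pax7+/+ in log2 with its standard error (SE). It is the estimate of the fit, in which all days share the shift between the array sets. It can therefore lie outside the differences within the sets, as for Chil1 at -2.25 (-2.55 on narrow and -2.83 on wide arrays). A gene passed at a limma p, adjusted over all genes by Benjamini-Hochberg, under 0.05.

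The probe set for Pax7 did not separate the genotypes. It read 6.12, 5.36 and 5.53 in Pax7-/- and 6.19, 5.61 and 5.52 in Pax7+/+, a difference of 0.25 ± 0.24 (adjusted p = 0.681). The sources used here do not say whether its probes lie in the stretch that was altered, so this reading checks no label. None of the 9 measured Pax genes passed. The 2 with the smallest p were Pax4 (-0.36 ± 0.12, adjusted p = 0.1) and Pax6, a regulator of eye and forebrain, at 0.51 ± 0.18 (adjusted p = 0.132). Pax3, the closest relative of Pax7, read 5.98, 5.51 and 6.27 in Pax7-/- and 5.93, 5.74 and 5.67 in Pax7+/+ (0.31 ± 0.28, adjusted p = 0.656). Of the 9 Pax genes 2 rose once Pax7-/- replicate 1 was left out.

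Between the day 21 outgrowths 1085 genes differed (4.89% of 22180), 847 of them higher in Pax7-/- (3.82%) and 238 lower (1.07%). At 2-fold or more, 140 were higher (0.631%) and 38 lower (0.171%). The median difference was 0.71 over the higher and -0.68 over the lower genes, beside -0.006 over all genes. Genes with strong signal made up most of the calls, since 702 of the 847 higher and 184 of the 238 lower genes lay above the 75th percentile of mean level. The share of higher calls moved with the scaling: it was 78.1% as deposited, 66.9% with each array brought to a common SD (745 higher, 369 lower) and 63.4% after quantile normalization (876 higher, 506 lower). Without a term for the array set limma called 0 genes (539 at an unadjusted p under 0.05, against 3831 with the term). Leaving out Pax7-/- replicate 2 or 3 gave 707 or 659 genes, and leaving out Pax7+/+ replicate 2 gave 719 higher and 127 lower genes.

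The difference had the same sign on narrow and on wide arrays for 1083 of the 1085 genes and for 60.2% of all genes. The fit that selected these genes used both sets, so the agreement is a description. The arrays of the genotypes were apart in both sets, in the same direction, for 1081 of them and for 36.1% of all genes. A test of the difference on wide minus narrow arrays passed for 185 genes (0.834%), 36 of them among the 1085. For those genes 1 value for both sets is a compromise: Npm1 differed by 2.24 on narrow and 0.76 on wide arrays, and Cdkn1c by -0.62 and -2.43. The plot of narrow against wide differences shows the higher genes in the upper right and the lower genes in the lower left.

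**Figure D1:**
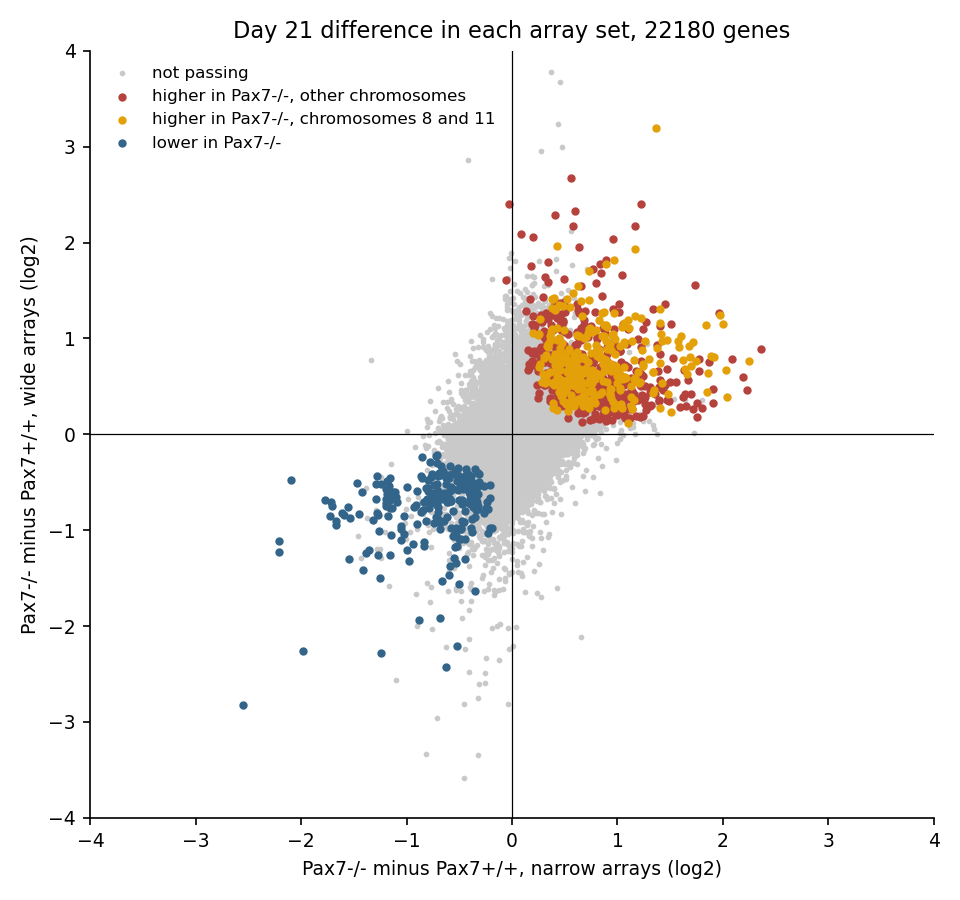
Each point is a gene, with Pax7-/- minus Pax7+/+ at day 21 on narrow arrays (x axis, log2) and on wide arrays (y axis, log2); coloured points are the 847 higher genes, split by chromosome, and the 238 lower genes, and grey points did not pass. Coloured points lie with the same sign on both axes for 1083 of 1085 genes.

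Genes of chromosomes 8 and 11 rose more often than others. Of 2685 genes there, 314 were higher in Pax7-/- (11.7%) and 6 lower (0.223%), whereas of the 19495 other genes 533 were higher (2.73%) and 232 lower (1.19%). Chromosome 8 gave 126 and chromosome 11 gave 188 of the 847 higher genes, together 37.1%. Among genes above the 75th percentile of level, the median difference was 0.355 on chromosome 8 and 0.346 on chromosome 11, and between 0.011 and 0.144 on each other chromosome. On 8 and 11 together 83.4% of 874 such genes were above 0, against 58.5% of 4671 elsewhere. The same genes had medians of 0.16 at day 0 and 0.26 at day 7 on these chromosomes, and -0.08 and -0.04 elsewhere. DNA copy number was not measured, and its part in these values was not tested. For the gene lists with calls, the count off these chromosomes is therefore given below, and genes on them are marked with their chromosome.

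**Figure D2:**
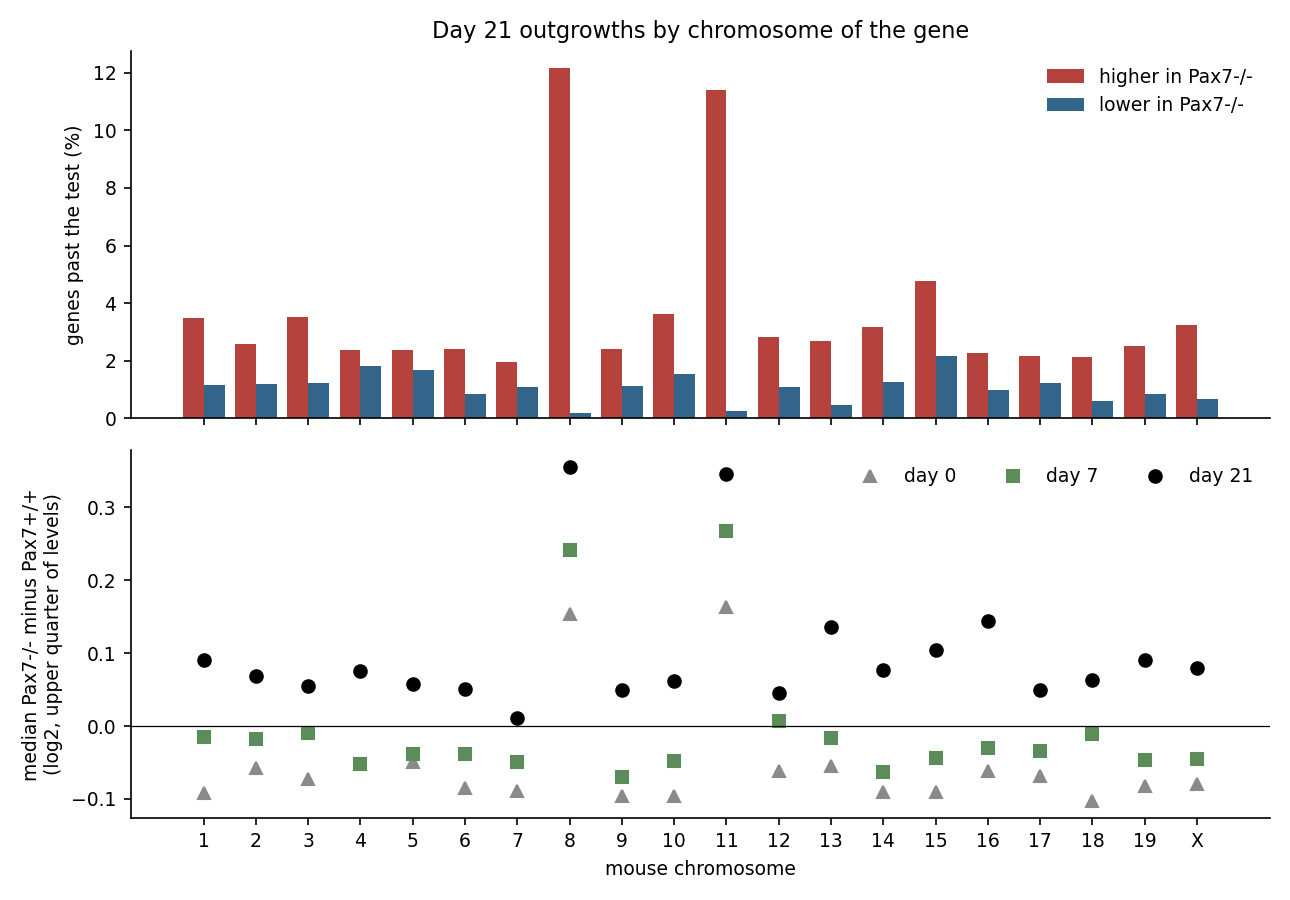
Top, percent of the genes of each mouse chromosome that passed as higher or lower in Pax7-/- at day 21; bottom, median Pax7-/- minus Pax7+/+ difference (log2) at days 0, 7 and 21 over genes above the 75th percentile of level. Chromosomes 8 and 11 stand above the others at each day, at 0.355 and 0.346 on day 21.

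Many DNA replication genes were higher in Pax7-/-. Of the 31 measured, 17 rose, 0 fell and 14 did not pass, with a median difference of 0.60, and off chromosomes 8 and 11 it was 12 of 24 with a median of 0.56. Their mean level was 6.67, 8.03 and 8.17 in Pax7-/- and 6.05, 6.05 and 7.45 in Pax7+/+. Mcm5 (chromosome 8), a subunit of the MCM helicase that opens DNA at origins, read 9.06, 10.05 and 10.12 in Pax7-/- and 7.68, 7.30 and 9.11 in Pax7+/+. The genotypes were apart by 1.36 ± 0.18 or 2.56-fold (adjusted p = 0.00048). Pcna, the sliding clamp of DNA polymerases, was higher by 0.99 ± 0.15 (adjusted p = 0.00139), and the helicase subunits Mcm7 and Mcm2 by 0.95 ± 0.18 and 0.92 ± 0.15. Each of these 4 genes passed with any 1 of the day 21 arrays left out, and the count of the list then ran from 13 (without Pax7-/- replicate 3) to 16. The median of the list was 0.02 at day 0 and -0.02 at day 7. By a test of the change in difference, 8 of its genes changed from day 0 and 8 from day 7, not all of them the same.

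Mitosis genes rose in 9 of 25 cases and fell in 0, with 16 not passing and a median of 0.40. Off chromosomes 8 and 11 it was 7 of 22, with the same median. Top2a (chromosome 11), the topoisomerase that untangles chromosomes, read 7.54, 9.16 and 9.43 in Pax7-/- and 6.45, 6.10 and 8.32 in Pax7+/+ (1.13 ± 0.14, adjusted p = 0.000316). Ccnb2, cyclin B2, was higher by 0.97 ± 0.18, the kinase gene Plk1 by 0.94 ± 0.21 and Aurkb (chromosome 11), the kinase of the chromosomal passenger complex, by 0.90 ± 0.16. Plk1 did not pass without Pax7-/- replicate 1 (adjusted p = 0.103) or without Pax7+/+ replicate 1 or 3, and the list then gave 4 genes without Pax7-/- replicate 1 and 6 or 7 without any other array. All 25 members were above 0.

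Regulators of the step into S phase rose in 6 of 20 cases and fell in 0, with a median of 0.43 (4 of 17 off chromosomes 8 and 11). Tfdp1 (chromosome 8), the DNA-binding partner of E2F factors, read 8.14, 9.74 and 9.92 in Pax7-/- and 6.59, 6.76 and 8.85 in Pax7+/+ (1.21 ± 0.12, adjusted p = 8.64e-05). The factors E2f4 (chromosome 8), E2f7 and E2f3 were higher by 0.69 ± 0.12, 0.66 ± 0.12 and 0.62 ± 0.13. E2f3 did not pass without Pax7-/- replicate 1 (adjusted p = 0.0682), and the list gave 3 genes without that array. Cell cycle brakes and p53 targets moved both ways, 2 up and 2 down of 19 (10.5% each, beside 3.82% and 1.07% of all genes). Off chromosomes 8 and 11 it was 1 up (5.56%, beside 2.73% of all genes there) and 2 down of 18. Ccng1 (chromosome 11), a p53 target, was higher by 1.25 ± 0.17. Cdkn1c, the CDK inhibitor p57, and Btg1, an antiproliferative gene, were lower by -1.52 ± 0.29 and -0.92 ± 0.13. Trp53inp1 was higher by 0.84 ± 0.20, and 4 of the 6 fits with 1 array left out did not pass it (adjusted p up to 0.1).

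Promoter windows from RefSeq on the assembly GRCm38.p6, 250 bases before to 50 after a gene's start, were matched by gene identifier for 16918 of the measured genes (20520 windows). They are shown for cell cycle genes, whose promoters are known for the motifs below, and members with and without a motif were not compared. The E2F motif, TTTCCCGC or TTTGGCGC, was searched on both strands, as were the CHR motif TTTGAA and the CCAAT box CCAAT, each an element known from cell cycle promoters. E2F letters were in 2.1% of all windows, in 6.1% of those of higher genes, 7.8% of those of higher genes off chromosomes 8 and 11, 3.5% of those on them, and 2.0% of those of lower genes. In the replication list they were in 32.3% of 31 windows, and in the mitosis list the CHR motif was in 76.2% and the CCAAT box in 85.7% of 21 windows, against 15.4% and 37.7% of all windows. A match is a description of letters and no test was made. Stretches of 100 bases, 5′ to 3′, are given below for 3 helicase genes with the E2F letters in capitals, and for 2 mitotic kinase genes with the CHR and CCAAT letters in capitals. Mcm3, Mcm6 and Aurka, shown for their motifs, were chosen after their values were seen and were higher by 0.90 ± 0.16, 0.83 ± 0.13 and 0.44 ± 0.12 (adjusted p = 0.0494 for Aurka).
Mcm5, chr8:75109314-75109413, plus strand: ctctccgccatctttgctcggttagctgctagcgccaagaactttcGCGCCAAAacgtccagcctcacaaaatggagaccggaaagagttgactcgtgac
Mcm3, chr1:20820263-20820362, minus strand: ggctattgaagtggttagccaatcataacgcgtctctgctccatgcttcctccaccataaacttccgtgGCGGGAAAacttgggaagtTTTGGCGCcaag
Mcm6, chr1:128359731-128359830, minus strand: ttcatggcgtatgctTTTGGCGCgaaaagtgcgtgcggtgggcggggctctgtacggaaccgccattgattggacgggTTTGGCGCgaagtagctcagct
Plk1, chr7:122159385-122159484, plus strand: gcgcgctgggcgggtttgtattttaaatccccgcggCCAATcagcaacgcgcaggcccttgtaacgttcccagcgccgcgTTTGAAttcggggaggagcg
Aurka, chr2:172370521-172370620, minus strand: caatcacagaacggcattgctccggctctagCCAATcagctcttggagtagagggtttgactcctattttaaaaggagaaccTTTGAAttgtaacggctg

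In Mcm3 the E2F letters start at positions 20 and 39 after the start of transcription and in Mcm6 at -110 and -47, while the Mcm5 window holds them at -149. In Plk1 the CCAAT box starts at -14 and the CHR motif at 31, and in Aurka at -19 and 33. The E-box CACGTG was in 8.1% of all windows and 12.6% of those of higher genes. The PAX homeodomain pair, TAAT and its reverse complement 3 bases apart, was in 0.4% of all windows, 0.1% of those of higher genes and 0.4% of those of lower genes.

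Genes of ribosome assembly were higher as well. Of 39 nucleolar genes 18 rose, 0 fell and 21 did not pass, with a median of 0.59 (12 of 33 off chromosomes 8 and 11, median 0.51). Npm1 (chromosome 11), nucleophosmin of the granular nucleolus, read 9.70, 10.79 and 10.61 in Pax7-/- and 7.40, 7.51 and 9.94 in Pax7+/+ (1.61 ± 0.25, adjusted p = 0.00163). Abce1 (chromosome 8), which recycles ribosomes after translation ends, was higher by 1.51 ± 0.25, Utp4 (chromosome 8), of the small subunit processome, by 1.34 ± 0.22, and Mybbp1a (chromosome 11) by 1.22 ± 0.17. Each of these 4 lies on 8 or 11. Among genes elsewhere, Dkc1, the pseudouridine synthase dyskerin, was higher by 1.12 ± 0.19 and Ncl, nucleolin, by 0.99 ± 0.19, both named after their values were seen. With 1 array left out 15 to 22 genes rose.

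Of 67 cytosolic ribosomal protein genes 21 rose and 0 fell, with a median of 0.28 (16 of 61 off chromosomes 8 and 11, median 0.26). Rpl3, a core protein of the large subunit, read 9.39, 10.02 and 10.12 in Pax7-/- and 8.34, 7.99 and 7.67 in Pax7+/+, so all Pax7-/- arrays were above all Pax7+/+ arrays regardless of set (1.74 ± 0.23, 3.35-fold, adjusted p = 0.000524). Rpl38 and Rpl19 (both chromosome 11) were higher by 1.29 ± 0.25 and 1.09 ± 0.18, and Rps3a1 by 1.09 ± 0.19. The list gave 9 genes without Pax7+/+ replicate 1 or Pax7-/- replicate 1, 10 to 13 without Pax7-/- replicate 2 or 3 or Pax7+/+ replicate 3, and 22 without the remaining array, and 8 rose on wide arrays alone, where 1 fell. Ribosomal protein genes have many processed pseudogenes, and binding of such copies to the probes was not tested. Mitochondrial ribosomal proteins rose in 8 of 68 cases and fell in 0 (4 of 55 off these chromosomes), led by Mrpl38 and Mrpl10, both on chromosome 11, at 0.85 ± 0.14 and 0.70 ± 0.11. Without Pax7-/- replicate 1 the count was 3, without Pax7+/+ replicate 2 it was 4 and without Pax7-/- replicate 2 or 3 it was 5. Small nucleolar RNAs off chromosomes 8 and 11 rose in 3 of 60 cases (5%, beside 2.73% of all genes there) and fell in 1. Over the whole list 8 of 73 rose (11%, beside 3.82% of all genes) and 1 fell (1.37%, beside 1.07%). The rises numbered 2 without Pax7-/- replicate 2 and 3 without Pax7-/- replicate 1 or Pax7+/+ replicate 2, and 2 passed on narrow arrays alone against 25 on wide arrays alone. Those on chromosomes 8 and 11 include Snord13 (chromosome 8), at 7.14, 9.20 and 8.33 in Pax7-/- and 5.48, 6.07 and 5.57 in Pax7+/+ (2.06 ± 0.48). Snord13 was higher by 2.68 at day 0 as well, and at day 21 it did not pass without Pax7+/+ replicate 2 (adjusted p = 0.145) or Pax7-/- replicate 2 (0.0813).

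The list of chaperonin and mitochondrial import genes held the highest share of rises of any list with 3 or more calls. Of its 21 genes 14 rose and 0 fell, with a median of 0.65 (10 of 16 off chromosomes 8 and 11). The lists were chosen with earlier results of these data known. This list includes C1qbp and Cyb5b, which are not chaperonin subunits and are among the largest rises of all genes. Its rank among the lists is therefore a description and no test. C1qbp (chromosome 11), a protein of the mitochondrial matrix, read 7.13, 8.91 and 8.65 in Pax7-/- and 5.08, 5.23 and 7.54 in Pax7+/+ (1.65 ± 0.16, 3.14-fold, adjusted p = 8.64e-05). Cyb5b (chromosome 8), a cytochrome b5 of the outer mitochondrial membrane, was higher by 1.62 ± 0.22. Cct4 (chromosome 11), a subunit of the cytosolic chaperonin that folds actin and tubulin, and Hspd1, the mitochondrial chaperonin Hsp60, were higher by 1.33 ± 0.20 and 1.17 ± 0.22. The count was 7 without Pax7-/- replicate 1, 8 or 9 without Pax7-/- replicate 3 or Pax7+/+ replicate 1 or 3, and 3 on wide arrays alone, where the median was 0.39 against 0.78 on narrow arrays.

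Enzymes of nucleotide synthesis rose in 11 of 20 cases and fell in 0 (9 of 16 off chromosomes 8 and 11), with a median of 0.56. Cad, the multifunctional enzyme that starts pyrimidine synthesis, read 6.88, 8.58 and 8.75 in Pax7-/- and 5.75, 5.53 and 7.57 in Pax7+/+ (1.17 ± 0.12, adjusted p = 8.64e-05). The purine enzymes Gart, Atic and Gmps were higher by 1.15 ± 0.15, 0.93 ± 0.13 and 0.91 ± 0.15. None of these 4 genes is on chromosome 8 or 11, and each passed with any 1 array left out. Gart has 3 probe sets and did not pass with the mean over them. Gmps differed by 1.26 on narrow and 0.51 on wide arrays. Cad, Gart and Atic differed by -0.16, 0.05 and -0.32 at day 0 and by -0.16, -0.56 and -0.22 at day 7, and the change to day 21 passed from each of those days. Sterol and fatty acid enzymes rose in 8 of 16 cases and fell in 0 (4 of 11 off these chromosomes). Fasn (chromosome 11), fatty acid synthase, was higher by 1.37 ± 0.17 and Acly (chromosome 11), which supplies its acetyl-CoA, by 0.99 ± 0.13. Hmgcs1, of cholesterol synthesis, was higher by 0.90 ± 0.19 and Elovl6, a fatty acid elongase, by 0.87 ± 0.21. The list gave 3 genes without Pax7+/+ replicate 1 or 3, 4 without any 1 of the Pax7-/- arrays and 2 on wide arrays alone, and Elovl6 and Hmgcs1 each failed in fits with an array left out (adjusted p up to 0.102 and 0.0624).

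In the list of Polycomb and HMG proteins 7 of 15 rose and 0 fell (5 of 11 off chromosomes 8 and 11). Hells, a remodeler needed for DNA methylation, read 4.80, 7.78 and 7.75 in Pax7-/- and 4.01, 3.66 and 6.80 in Pax7+/+ (1.01 ± 0.13, adjusted p = 0.000407). Hmgb2 (chromosome 8), Jarid2 and Ezh2, the last being the methyltransferase of Polycomb complex PRC2, were higher by 0.88 ± 0.15, 0.81 ± 0.16 and 0.79 ± 0.13. H1f5, a linker histone, read 5.76, 7.81 and 7.82 in Pax7-/- and 3.76, 4.29 and 6.26 in Pax7+/+ (1.6 ± 0.17, 3.03-fold, adjusted p = 0.00012). H2az2 (chromosome 11) was higher by 1.07 ± 0.18, and 3 of 8 linker and replacement histone genes rose in all (2 of 7 off these chromosomes). The splicing and RNA binding list rose in 6 of 19 cases, 3 of 16 off chromosomes 8 and 11, with Hnrnpab and Srsf2 (both chromosome 11) at 0.93 ± 0.13 and 0.90 ± 0.16, and Hnrnpu and Lsm3 at 0.85 ± 0.18 and 0.83 ± 0.16. Hnrnpu did not pass without Pax7-/- replicate 1 (adjusted p = 0.0711).

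**Figure D3:**
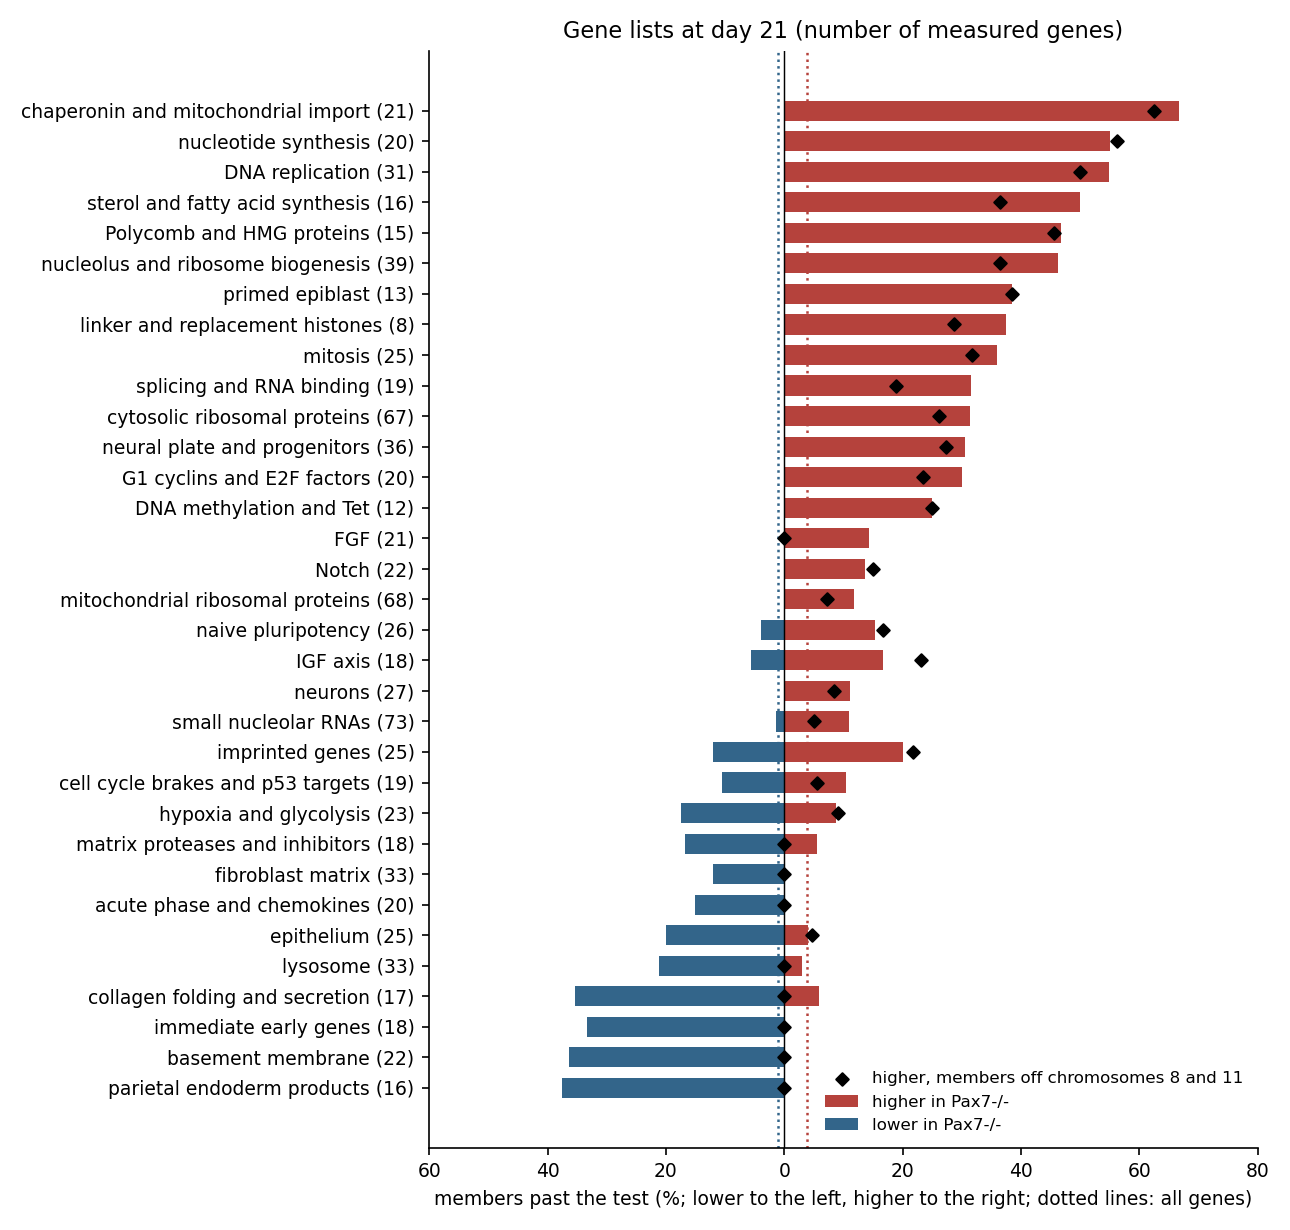
For each gene list with at least 3 calls (number of measured genes in brackets), bars show the percent of members that passed as higher (right) or lower (left) in Pax7-/- at day 21, diamonds the percent higher among members off chromosomes 8 and 11, and dotted lines the 3.82% and 1.07% over all genes. The share to set beside the diamonds, 2.73% of all genes off chromosomes 8 and 11, is not drawn. Cell growth and neural lists extend to the right, and basement membrane, parietal endoderm and immediate early lists to the left.

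Some neural plate genes were higher in Pax7-/-. Of 36 genes of the neural plate and neural progenitors 11 rose, 0 fell and 25 did not pass, with a median of 0.78 (9 of 33 off chromosomes 8 and 11, median 0.64). Within the array sets the median was lower, 0.28 on narrow and 0.76 on wide arrays. Sox1 (chromosome 8), a transcription factor known as an early marker of neuroectoderm, read 7.23, 8.36 and 8.51 in Pax7-/- and 5.92, 6.20 and 6.50 in Pax7+/+. All Pax7-/- arrays were above all Pax7+/+ arrays, by 1.76 ± 0.26 in the fit or 3.39-fold (adjusted p = 0.000967). Sox2, shared by pluripotent and neural progenitor cells, read 7.88, 9.63 and 9.74 in Pax7-/- and 6.34, 6.75 and 8.38 in Pax7+/+ (1.41 ± 0.21, adjusted p = 0.001). Zic2, a zinc finger factor of the dorsal forebrain, was higher by 1.32 ± 0.17 (adjusted p = 0.000407). Sox1, Sox2 and Zic2 passed with any 1 array left out.

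Prtg, protogenin, a receptor of the neural tube, rose by more but less firmly. It read 8.30, 9.52 and 9.87 in Pax7-/- and 5.97, 5.90 and 8.81 in Pax7+/+ (1.87 ± 0.48, adjusted p = 0.0327), with 2.37 on narrow and 0.89 on wide arrays. With 1 array left out it passed in 1 of 6 fits, and its adjusted p reached 0.109. The neural plate list gave 6 genes without Pax7-/- replicate 2 or 3, 7 without Pax7+/+ replicate 1 or 3, and 17 without Pax7-/- replicate 1. Neuron genes rose in 3 of 27 cases with a median of 0.11 (2 of 24 off chromosomes 8 and 11, and a count of 1 without Pax7+/+ replicate 2): Stmn2, a regulator of microtubules, by 0.88 ± 0.17, the intermediate filament gene Ina by 0.78 ± 0.19 and Tubb3 (chromosome 8) by 0.74 ± 0.16. Ina and Tubb3 did not pass without Pax7+/+ replicate 2 (adjusted p = 0.185 and 0.0885) or Pax7-/- replicate 1 (0.124 and 0.0731). None of 12 glial genes passed, where Gfap (chromosome 11) read 5.81, 5.65 and 4.58 in Pax7-/- and 5.80, 5.62 and 4.34 in Pax7+/+. Of 18 neural crest genes Sox9 (chromosome 11) rose, by 0.99 ± 0.26, and 0 of 16 rose off chromosomes 8 and 11. Sox9 alone makes 5.56% of this list, beside 3.82% of all genes. With an array left out 2 of the 6 fits passed Sox9 (limma adjusted p up to 0.169).

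Some epiblast genes were higher too. Of 13 genes of the primed epiblast, the stage just before the germ layers form, 5 rose and 0 fell, with a median of 0.95 and none of the 13 on chromosomes 8 and 11. The median of this list was 0.42 on narrow and 0.99 on wide arrays. Dnmt3b, a de novo DNA methyltransferase, read 7.02, 9.16 and 8.83 in Pax7-/- and 6.04, 6.08 and 6.96 in Pax7+/+ (1.41 ± 0.20, 2.66-fold, adjusted p = 0.000777). Otx2, a factor of epiblast and anterior neural plate, was higher by 1.24 ± 0.27 and the cadherin gene Cdh2 by 1.21 ± 0.19. Otx2 missed the threshold without Pax7-/- replicate 2 or 3 (adjusted p = 0.0516 and 0.0531). Zic2, Otx2, Cdh2 and Pou3f1, 4 of the 5, are counted in the neural plate list as well. Naive pluripotency genes did not move together: of 26, 4 rose and 1 fell, with a median of 0.11, and none of these 5 is on chromosomes 8 and 11 (24 members lie elsewhere).

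Nanog read 5.86, 7.97 and 8.03 in Pax7-/- and 5.24, 5.66 and 5.71 in Pax7+/+, so the wide Pax7-/- arrays stood far above the others (1.37 ± 0.33, adjusted p = 0.0249). It passed in 2 of the 6 fits with an array left out (adjusted p up to 0.171), and the difference was 0.41 on narrow and 2.29 on wide arrays. Utf1, an embryonic chromatin factor, was higher by 1.45 ± 0.28 and Sall4 by 0.55 ± 0.11, the last not without Pax7-/- replicate 1 (adjusted p = 0.0606). Klf4, a factor of naive stem cells and of epithelia, was lower, at 6.15, 8.46 and 8.59 in Pax7-/- and 7.58, 7.95 and 9.35 in Pax7+/+ (-1.20 ± 0.16, adjusted p = 0.00055). Pou5f1, which encodes Oct4, read 5.95, 6.0 and 5.80 in Pax7-/- and 6.17, 6.03 and 5.36 in Pax7+/+ (0.11 ± 0.19, adjusted p = 0.861), and Zfp42 (chromosome 8) and Esrrb did not pass either. Lin28a, an RNA-binding protein of embryonic cells that blocks let-7 processing, was higher by 1.06 ± 0.13 (adjusted p = 0.000397) and Lin28b by 1.17 ± 0.27. They were the 2 genes that passed among 13 of the Myc family and Lin28 list. Neither lies on chromosomes 8 and 11. Lin28b did not pass without Pax7+/+ replicate 2 (adjusted p = 0.106) or Pax7-/- replicates 2 or 3. Tet1, which oxidises methylcytosine, was higher by 0.74 ± 0.16, with an adjusted p of 0.0564 without Pax7+/+ replicate 2. It is 1 of the 3 genes that rose of 12 in the DNA methylation list, Dnmt3b and Uhrf1 being the others. All 12 lie off chromosomes 8 and 11.

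**Figure D4:**
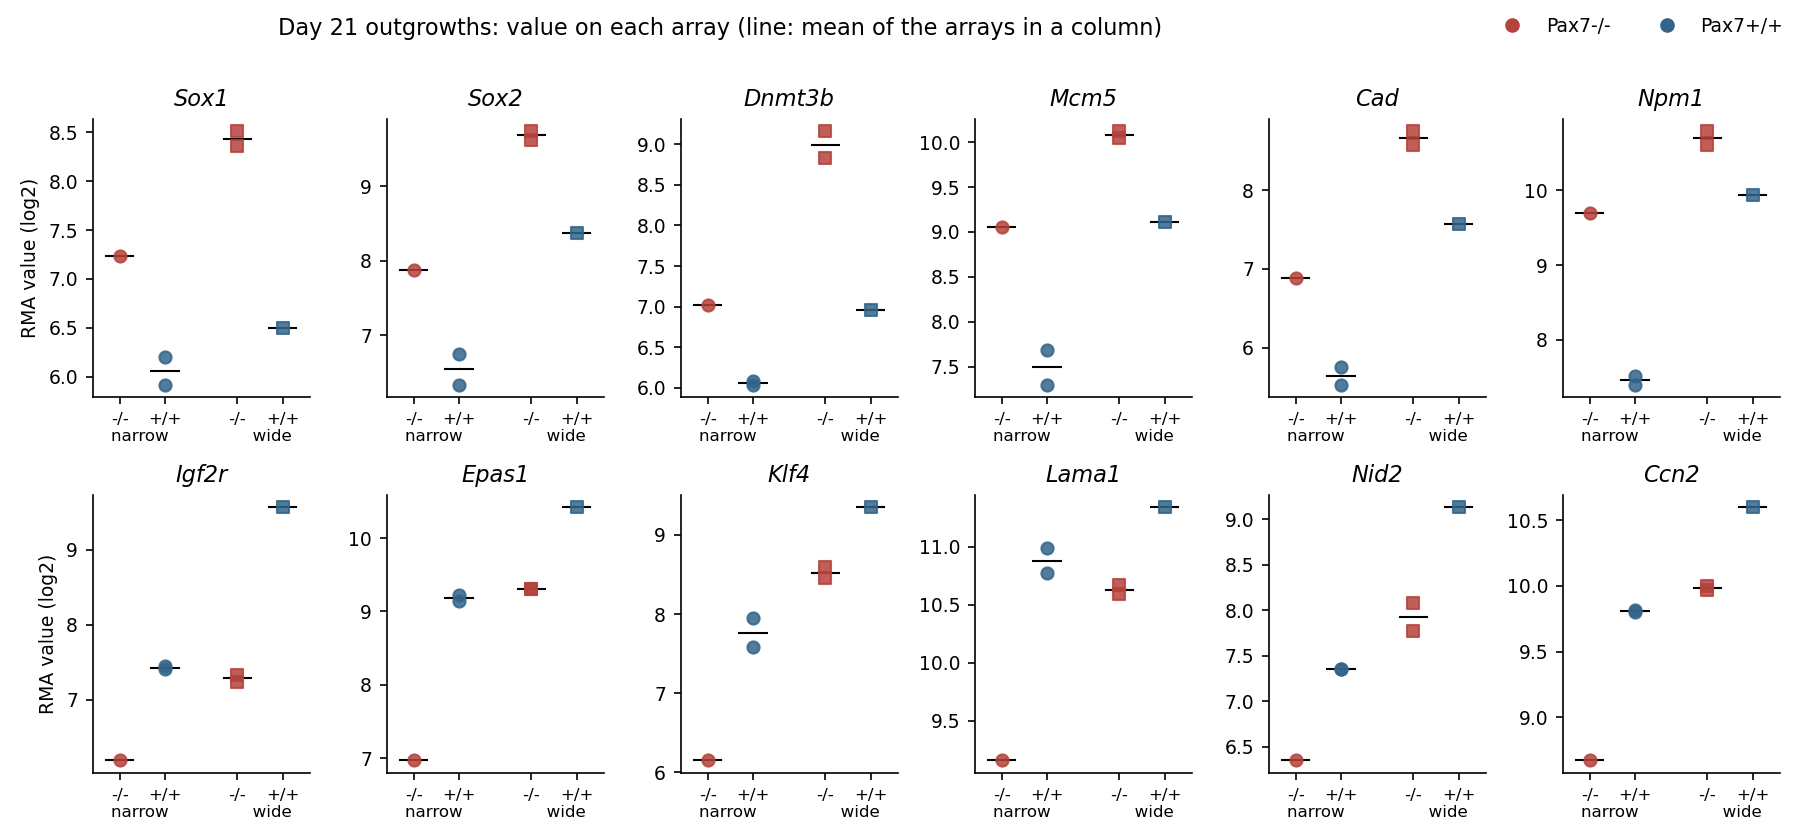
RMA values (log2) on each day 21 array for 6 genes that were higher and 6 that were lower in Pax7-/-; circles are narrow and squares wide arrays, and the line is the mean of the arrays in a column. Within each array set the Pax7-/- arrays lie above the Pax7+/+ arrays for the top row and below them for the bottom row, as for Sox1 (7.23 against 5.92 and 6.20 on narrow arrays) and Igf2r (6.19 against 7.45 and 7.41).

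Some basement membrane genes were lower in Pax7-/-. Of 22, 8 fell, 0 rose and 14 did not pass, with a median of -0.40 (7 of 19 off chromosomes 8 and 11, median -0.30). Genes for laminin, the sheet-forming glycoprotein, and for nidogens, which link it, were among those that fell. Lama1, the alpha 1 chain, read 9.16, 10.59 and 10.67 in Pax7-/- and 10.99, 10.77 and 11.34 in Pax7+/+ (-1.22 ± 0.20, adjusted p = 0.0023). Lamb1, the beta 1 chain, read 8.87, 10.51 and 10.57 in Pax7-/- and 10.60, 10.60 and 11.39 in Pax7+/+ (-1.32 ± 0.22, adjusted p = 0.00252). Nid2, a nidogen that joins laminin to collagen IV, was lower by -1.09 ± 0.12 (adjusted p = 0.000146), and each of these 3 passed with any 1 array left out. Nid1 read 8.68, 10.77 and 10.76 in Pax7-/- and 10.79, 10.77 and 11.24 in Pax7+/+ (-1.52 ± 0.36), of which -2.10 was seen on narrow and -0.48 on wide arrays. It passed in 1 of the 6 fits with an array left out (adjusted p up to 0.0817). The list gave 5 to 7 genes in those fits, and 5 without Pax7+/+ replicate 3 or Pax7-/- replicate 1 or 3.

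Parietal endoderm, which lays down the thick laminin membrane of the yolk sac, shares several of these genes. Of 16 products of its cells 6 fell and 0 rose, with a median of -0.67 (5 of 13 off chromosomes 8 and 11), and without Pax7+/+ replicate 1 or Pax7-/- replicate 1 or 3 the count of falls was 3. Dab2, an endocytic adaptor of extraembryonic endoderm, was lower by -0.88 ± 0.15 and Krt18, a keratin of simple epithelia, by -0.89 ± 0.22. Krt18 passed in 2 of the 6 fits with an array left out. The median of the list was 0.45 at day 0 and -0.19 at day 7, and 6 genes changed their difference from day 0 to day 21. Lama1 was higher by 2.38 at day 0. None of 14 endoderm transcription factors passed, Gata6 reading 7.55, 9.91 and 9.92 in Pax7-/- and 8.67, 8.76 and 10.42 in Pax7+/+ (-0.73 ± 0.28, adjusted p = 0.168). Nor did any of 25 visceral endoderm and liver products, whose median was -0.14 on narrow and -1.23 on wide arrays. The lone wide Pax7+/+ array read high for these: Afp, alpha-fetoprotein, was 6.49, 7.45 and 6.19 in Pax7-/- and 7.43, 7.18 and 10.15 in Pax7+/+ (-1.80 ± 0.63, adjusted p = 0.132). With the array set fitted by day, 4 of the 14 endoderm factors and 8 of the 25 visceral endoderm and liver products fell.

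Genes of collagen folding and secretion fell in 6 of 17 cases, with a median of -0.39 (6 of 13 off chromosomes 8 and 11). Creb3l1, a transcription factor anchored in the endoplasmic reticulum that drives collagen secretion in bone, read 6.68, 8.13 and 8.84 in Pax7-/- and 8.04, 7.83 and 9.98 in Pax7+/+ (-1.32 ± 0.19, adjusted p = 0.000811). Plod2, a lysyl hydroxylase, and P4ha1, a prolyl hydroxylase subunit, were lower by -1.29 ± 0.23 and -1.17 ± 0.23, and Kdelr3, a retrieval receptor of the secretory pathway, by -0.95 ± 0.21. The list gave 4 falls without Pax7-/- replicate 1, where Kdelr3 did not pass (adjusted p = 0.0932). The 1 member that rose was Leprotl1 (chromosome 8), at 0.47 ± 0.13, which is not an enzyme of collagen and passed in 1 of the 6 fits with an array left out. In the fibroblast matrix list 4 of 33 fell and 0 rose (4 of 32 off these chromosomes). Pdgfra, a receptor of mesenchymal cells, was lower by -1.26 ± 0.30, the proteoglycan decorin, Dcn, by -1.25 ± 0.31, Col12a1 by -0.88 ± 0.23 and Col5a1 by -0.84 ± 0.20. None of these 4 passed without Pax7-/- replicate 1 (adjusted p from 0.0574 to 0.13), so the list then gave 0. It also gave 0 without Pax7-/- replicate 3 and 1 without Pax7+/+ replicate 2 or 3. Among matrix proteases and inhibitors Mmp2 (chromosome 8), gelatinase A, was higher by 1.36 ± 0.17, while Timp3, Plaur and Adamts9 were lower by -0.84 ± 0.20, -0.84 ± 0.14 and -0.80 ± 0.18. The 3 falls are off chromosomes 8 and 11 (3 of 16). The count of falls was 1 without Pax7+/+ replicate 1, and that of rises was 3 without Pax7-/- replicate 1. With an array left out Timp3 passed in 2, Adamts9 in 4 and Plaur and Mmp2 in all 6 fits.

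Lysosomal genes fell in 7 of 33 cases and rose in 1, with a median of -0.26 (7 falls and 0 rises of 25 off chromosomes 8 and 11, median -0.37). Ctsa, a protective lysosomal carboxypeptidase, read 7.76, 9.31 and 9.20 in Pax7-/- and 9.0, 8.91 and 9.93 in Pax7+/+ (-0.91 ± 0.14, adjusted p = 0.00149). Hexa, a hexosaminidase subunit, read 5.54, 8.37 and 8.45 in Pax7-/- and 6.44, 6.33 and 9.20 in Pax7+/+ (-0.81 ± 0.10, adjusted p = 0.000389). Lgmn, the protease legumain, was lower by -1.07 ± 0.22 and Psap, prosaposin, by -0.75 ± 0.12. Ctsa and Hexa had been lower by -0.85 and -0.80 at day 0 and by -0.76 and -0.68 at day 7. Atp6v0d1 (chromosome 8), a subunit of the proton pump, was higher by 0.60 ± 0.14 and passed in 2 of the 6 fits with an array left out. Without Pax7+/+ replicate 2 the list gave 4 falls, and Lgmn did not pass (adjusted p = 0.0638).

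Immediate early genes, the first to be transcribed after a growth or stress signal, fell in 6 of 18 cases and rose in 0, with a median of -0.43 (6 of 15 off chromosomes 8 and 11). Zfp36, whose protein destabilises inflammatory mRNAs, read 5.80, 8.80 and 8.86 in Pax7-/- and 7.49, 7.29 and 9.67 in Pax7+/+ (-1.13 ± 0.19, adjusted p = 0.00242). Ccn2 and Ccn1, matricellular targets of YAP signalling, were lower by -0.87 ± 0.12 and -0.72 ± 0.20, and Fosb by -1.10 ± 0.25. Ccn2 was lower by -0.97 at day 0 and higher by 0.70 at day 7. With an array left out Fosb passed in 4 fits and Ccn1 in 1, and the list gave 2 genes without Pax7-/- replicate 1 and 3 without Pax7+/+ replicate 2. Of 20 acute phase and chemokine genes 3 fell (3 of 17 off these chromosomes). Chil1, a chitinase-like secreted protein, read 5.84, 6.57 and 7.62 in Pax7-/- and 8.62, 8.17 and 9.92 in Pax7+/+ (-2.25 ± 0.48, 4.75-fold, adjusted p = 0.0114). Saa3, a serum amyloid A, read 5.21, 7.29 and 5.16 in Pax7-/- and 7.09, 7.30 and 8.48 in Pax7+/+ (-2.13 ± 0.51, adjusted p = 0.0225). With an array left out Chil1 passed in 4 fits and Saa3 in 2, and without Pax7+/+ replicate 2 neither passed (adjusted p = 0.0882 and 0.079) and the list gave 0. The list also gave 0 without Pax7-/- replicate 1 and 1 without Pax7-/- replicate 3.

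Imprinted genes, expressed from the allele of 1 parent, moved both ways: of 25, 5 rose and 3 fell (5 and 2 of 23 off chromosomes 8 and 11). The rises numbered 2 without Pax7-/- replicate 2 or Pax7+/+ replicate 1 or 3, and 3 without Pax7-/- replicate 3 or Pax7+/+ replicate 2. Igf2r, the receptor that clears the growth factor IGF2, read 6.19, 7.24 and 7.33 in Pax7-/- and 7.45, 7.41 and 9.57 in Pax7+/+ (-1.77 ± 0.19, 3.41-fold, adjusted p = 0.000111). Cdkn1c read 5.39, 4.54 and 4.65 in Pax7-/- and 5.92, 6.11 and 7.02 in Pax7+/+ (-1.52 ± 0.29, adjusted p = 0.00533). Grb10 (chromosome 11), an adaptor that restrains insulin signalling, was lower by -1.47 ± 0.29, and its adjusted p was 0.056 without Pax7+/+ replicate 2. Mest, a paternally expressed gene of mesoderm, read 10.11, 10.75 and 10.69 in Pax7-/- and 7.64, 8.41 and 9.93 in Pax7+/+ (1.45 ± 0.26, adjusted p = 0.00382). Rian, Magel2 and Ndn were higher by 1.11 ± 0.25, 1.02 ± 0.22 and 0.73 ± 0.19, and each failed in 2 or more of the fits with an array left out. Snhg14, a long RNA of the imprinted region that also holds Ndn and Magel2, read 3.98, 7.78 and 7.44 in Pax7-/- and 3.35, 3.49 and 4.94 in Pax7+/+ (1.5 ± 0.36). Its difference was 0.56 on narrow and 2.67 on wide arrays, and it passed in 3 of the 6 fits with an array left out (adjusted p up to 0.167). In the IGF list 1 of 18 fell, Igf2r, and 3 rose, the adaptor gene Irs4 by 1.59 ± 0.39, the RNA-binding protein gene Igf2bp3 by 0.81 ± 0.14 and Igfbp2 by 0.64 ± 0.16. None of these 4 is on chromosomes 8 and 11 (13 members lie elsewhere). Igfbp2 passed in 0 of the 6 fits with an array left out, Irs4 in 2 and Igf2bp3 in 6, and the rises numbered 1 without Pax7-/- replicate 2 or 3 or Pax7+/+ replicate 1.

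Other named genes stood apart singly. Epas1, which encodes the hypoxia factor HIF-2 alpha, read 6.97, 9.30 and 9.31 in Pax7-/- and 9.14, 9.22 and 10.42 in Pax7+/+ (-1.66 ± 0.17, 3.17-fold, adjusted p = 8.64e-05). In the hypoxia and glycolysis list 2 of 23 rose and 4 fell (2 and 4 of 22 off chromosomes 8 and 11). The rises numbered 6 without Pax7+/+ replicate 2, 2 without Pax7-/- replicate 3 and 1 without each other array. Among these genes were Ddit4, an inhibitor of mTORC1, higher by 1.11 ± 0.13 and Ndrg1 and Vegfa lower by -0.90 ± 0.17 and -0.57 ± 0.14. Vegfa passed in 2 of the 6 fits with an array left out (adjusted p up to 0.163). Among epithelial genes 5 of 25 fell and 1 rose (5 and 1 of 21 off chromosomes 8 and 11). The falls numbered 2 without Pax7-/- replicate 3 or Pax7+/+ replicate 2 and 3 without Pax7+/+ replicate 1, and 1 gene rose without Pax7+/+ replicate 1 or 2 and 0 without each other array. Emp2, a tetraspan membrane protein, read 5.53, 8.08 and 8.14 in Pax7-/- and 7.87, 7.61 and 9.34 in Pax7+/+ (-1.59 ± 0.22, adjusted p = 0.000572), and Plet1, a marker of trophoblast and epithelial progenitors, was lower by -1.42 ± 0.17. Trh, the thyrotropin-releasing hormone precursor, read 7.86, 9.11 and 8.96 in Pax7-/- and 6.83, 6.56 and 6.86 in Pax7+/+, without overlap over both sets (1.51 ± 0.24, 2.84-fold, adjusted p = 0.00176). Tmem47, a membrane protein gene, was higher by 1.54 ± 0.17 (adjusted p = 0.000125) and Arid5b, a chromatin factor, lower by -1.31 ± 0.18 (adjusted p = 0.000539).

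Among signalling lists, the 3 FGF pathway genes that rose of 21 were Fgfr1 and Dusp4 (chromosome 8) and Spred2 (chromosome 11), and 0 of 17 rose elsewhere. Fgfr1, an FGF receptor, read 7.77, 8.98 and 9.26 in Pax7-/- and 6.65, 6.55 and 7.89 in Pax7+/+ (1.24 ± 0.13, adjusted p = 8.64e-05). Dusp4, a phosphatase of ERK, was higher by 1.01 ± 0.10 and Spred2, an inhibitor of the pathway, by 0.68 ± 0.12. Notch genes rose in 3 of 22 cases, none on 8 or 11: the ligand Jag1 by 1.03 ± 0.17, the modifying enzyme Lfng by 1.09 ± 0.25 and the receptor Notch1 by 0.43 ± 0.11. Jag1 passed with any 1 array left out, Lfng in 3 and Notch1 in 2 of 6 such fits, and the list gave 1 gene without Pax7-/- replicate 2 or 3. In the Wnt list Sfrp1 (chromosome 8), a secreted Wnt antagonist, was the 1 of 23 that rose (1.08 ± 0.13), and 0 of 15 rose elsewhere. The share of 4.35% lies near the 3.82% of all genes. None of 22 BMP and TGF-beta genes passed, though 2 rose and 1 fell without Pax7-/- replicate 1.

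Muscle is the tissue in which Pax7 is best known. Of 26 myogenic regulators Mef2d alone passed, lower by -0.60 ± 0.11 (limma adjusted p = 0.00555). That is 1 of 26, and 1 of 24 off chromosomes 8 and 11, beside 4.89% of all genes. The same fit passed 0 of 31 skeletal sarcomere, 0 of 22 cardiac and 0 of 14 smooth muscle genes. Once Pax7-/- replicate 1 was left out, 2 myogenic, 2 sarcomere, 1 cardiac and 2 smooth muscle genes rose. Myod1, the myoblast determination factor, read 6.21, 4.93 and 5.15 in Pax7-/- and 6.52, 6.59 and 4.66 in Pax7+/+. The median over all genes was 5.23, 5.01 and 5.03 on the Pax7-/- arrays and 5.23, 5.20 and 5.03 on the Pax7+/+ arrays. Among 36 Hox genes 0 passed, with a median of -0.10, and among 20 retinoic acid genes 0 passed, with a median of -0.21. In the fit without Pax7-/- replicate 1, 2 Hox genes fell and 1 retinoic acid gene rose. The 15 macrophage genes were all below 0 with a median of -0.46 (-0.17 on narrow and -0.92 on wide arrays), and 0 passed. With the array set fitted by day 6 of them fell. The 23 blood and endothelium genes and 19 interferon genes gave 0 calls. For such lists the data do not show that the genotypes are alike.

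Some cell type markers are members of the lists above, so their levels are given as a description and are no separate evidence. The mean level of 6 neural progenitor markers was 6.90, 8.35 and 8.37 in Pax7-/- and 6.20, 6.36 and 7.47 in Pax7+/+, with 2 of 6 higher and 0 lower. For 6 pluripotent cell markers it was 5.52, 6.28 and 6.24 in Pax7-/- and 5.51, 5.44 and 5.10 in Pax7+/+, with 2 higher, and for 5 neuron markers 5.50, 6.42 and 6.65 in Pax7-/- and 5.14, 5.17 and 6.15 in Pax7+/+, with 2 higher. That of 6 parietal endoderm markers was 7.83, 8.81 and 8.79 in Pax7-/- and 8.79, 8.80 and 9.61 in Pax7+/+, with 3 lower. For 6 fibroblast markers it was 6.31, 7.78 and 7.16 in Pax7-/- and 6.95, 7.43 and 8.65 in Pax7+/+, with 2 lower, and for 5 visceral endoderm markers 6.44, 7.00 and 6.20 against 6.89, 6.95 and 8.56, with 0 passing. Macrophage markers averaged 5.11, 4.38 and 4.32 in Pax7-/- and 5.26, 5.50 and 5.35 in Pax7+/+, and skeletal muscle markers 5.05, 4.55 and 5.05 against 5.25, 5.28 and 4.31. The part of cell type makeup in the gene differences was not tested.

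The genotype differences were also tested at the earlier days. The genotype difference at day 21 differed from that at day 0 for 412 genes (1.86%) and from that at day 7 for 202 genes (0.911%), and 274 and 162 of these were among the 1085. These comparisons share the day 21 arrays. Of the 1085 genes, 60 also passed at day 0 in the same direction and 21 in the opposite direction, and at day 7 the counts were 44 and 11. Together these are 7.47% of the 1085 at day 0, beside 1.28% of all genes, and 5.07% at day 7, beside 0.627% of all genes. The 3 days were fitted in 1 model with a shared estimate of each gene's spread. At all 3 days in the same direction 9 passed. Among them Mest was higher by 1.24 at day 0, 1.43 at day 7 and 1.45 at day 21, and Cyb5r3, a cytochrome b5 reductase, was lower by -1.18, -1.08 and -0.85. Ctsa and Hexa, described above, were lower at each day, and Aatf and Usp22 (chromosome 11) and Otud4 and Pdpr (chromosome 8) were higher at each day by 0.45 to 0.81. Otud4 and Pdpr passed at day 21 in 2 and 3 of the 6 fits with an array left out. The ninth, named after its value was seen, was the small nucleolar RNA gene Snora73b, lower by -1.16, -1.43 and -0.83. At day 21 it passed in 2 of the 6 fits with an array left out (adjusted p up to 0.0891).

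The change from day 0 was large for Lama1, whose difference was 2.38 at day 0 and -1.22 at day 21 (change -3.60, adjusted p = 1.23e-05). Dnmt3b went the other way, with -0.54 at day 0, -0.31 at day 7 and 1.41 at day 21 (changes adjusted p = 0.0025 and 0.0118). Ptgs2, the inducible cyclooxygenase, was lower by -2.28 at day 0 and differed by -0.08 at day 21, and Tmem64 was higher by 2.27 at day 0 and differed by -0.11 at day 21. From day 7, Nanog changed by 2.62 (adjusted p = 0.0192), with -1.25 at day 7 and 1.37 at day 21, and Terc, the RNA template of telomerase, by 1.77, with -0.37 and 1.40. Dcn changed by -2.27, with 1.02 at day 7 and -1.25 at day 21, and F3, tissue factor, by -2.0, with 1.01 and -0.99. With an array left out the day 21 differences of Dcn and F3 each passed in 2 of 6 fits (limma adjusted p up to 0.15 and 0.123).

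**Figure D5:**
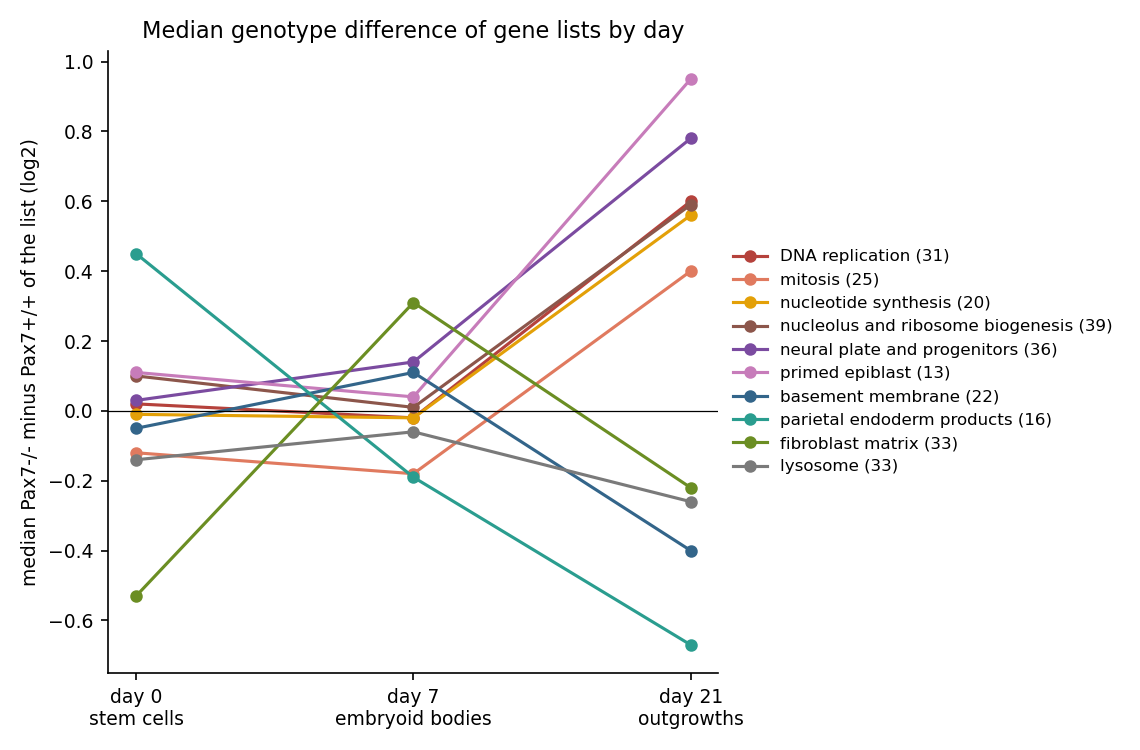
Median Pax7-/- minus Pax7+/+ difference (y axis, log2) of 10 gene lists at days 0, 7 and 21 (x axis), from the fit with the array set. Growth, neural plate and epiblast lists are between -0.18 and 0.14 at days 0 and 7 and at 0.40 to 0.95 at day 21, and the parietal endoderm list is at 0.45 on day 0 and -0.67 on day 21.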

How the data were processed

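RNA of 18 mouse stem cell, embryoid body and outgrowth samples was measured on arrays. The authors deposited a log2 value for each probe set, and the submitters' processing notes name RMA and Partek without versions; whether all arrays were summarised together is not given in the sources used here. Of 41345 probe sets 23521 had 1 gene symbol, 1814 several and 16010 none, and the probe set of highest mean was kept for each of 22180 genes (1082 had several). Symbols and chromosomes came from the RefSeq annotation of GRCm38.p6 (21991 genes with a chromosome). No filter on level was applied.

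Differences were fitted with limma 3.58.1 in R 4.3.3 (lmFit and eBayes without trend) to all 18 arrays with 6 group means and a term for wide arrays (SD over probe sets above 1.6), leaving 11 residual degrees of freedom. The fit gives Benjamini-Hochberg adjusted p over all genes, with 0.05 as the threshold. The number of arrays limits the precision, and an exact permutation test of 3 against 3 arrays cannot go below 0.1. Figures used Python 3.11.15 and matplotlib 3.10.9.

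The comparison, the array set, the 51 gene lists and the markers were chosen with earlier results of these data known. A gene can be in several lists, and 82 listed symbols had no probe set of their own against 1185 that did. Genes were named by rule: the 12 largest rises and 12 largest falls that passed, were at least 2-fold and were apart in both array sets, predicted genes and small RNAs passed over; up to 4 passing members of a list in each direction, or up to 2 where none passed; all Pax genes; the 5 largest changes each way from day 0 and from day 7; and genes that passed at all 3 days. Exceptions are named as such. Alternatives covered the array set term, scaling, filters on level, the probe set rule, limma options, a replicate block, thresholds and each day 21 array left out; quantile normalization within each array set and counts off chromosomes 8 and 11 were added after the data were seen. No pair of arrays held identical values.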

Additional observations from a re-analysis of the deposited data

Results flagged for a closer look

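The genotype difference at day 21 differed from an earlier day, by a test of that change with limma at an adjusted p under 0.05, for many of the genes above. Among the genes with the largest day 21 differences, the change from day 0 was 1.35 for C1qbp, 1.31 for Cyb5b, 1.35 for H1f5, 1.81 for Tmem47 and 1.5 for Trh, in log2. It was -1.62 for Igf2r, -1.71 for Epas1, -1.45 for Emp2, -1.75 for Cdkn1c and -2.32 for Lamb1. The change from day 7 was 1.15 for C1qbp, 1.34 for H1f5, -1.79 for Epas1, -1.42 for Emp2, -1.73 for Creb3l1 and -1.5 for Lamb1. Igf2r, Plet1 and Rpl3 already differed at day 7 in the same direction, by -1.28, -1.21 and 1.23. Their limma adjusted p at day 7 was 0.00709, 0.0065 and 0.0273, and their changes from day 7 to day 21 did not pass.

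Among the genes named for their change, the difference moved from day 0 by 1.95 for Dnmt3b, 2.21 for Ptgs2, 2.18 for Chac1, 1.93 for Taf1d and 1.92 for Cth. It moved from day 0 by -3.60 for Lama1, -2.82 for Cubn, -2.46 for Srgn, -2.38 for Tmem64 and -1.64 for Slco2a1. From day 7 it moved by 2.62 for Nanog, 1.72 for Dnmt3b, 2.49 for Pramel20, 2.15 for Scd1 and 1.77 for Terc. It moved from day 7 by -1.30 for Lama1, -2.27 for Dcn, -1.93 for Ccn1, -0.89 for Tmem64, -2.0 for F3 and -1.76 for Slco2a1. Ptgs2, Chac1, Cth, Cubn, Srgn, Tmem64, Pramel20 and Scd1 did not pass between genotypes at day 21 itself. Taf1d passed at day 21, but in 1 of the 6 fits with an array left out (limma adjusted p up to 0.142). Of the other 114 named genes that passed at day 21, 42 changed from day 0 and 30 from day 7. Of all 1085 genes that passed, 274 and 162 did, and of all genes 1.86% and 0.911%. Most named genes were picked by the size of their day 21 difference, so these counts are a description.

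Probe sets outside the gene comparison also differed at day 21. In a fit of all 41345 probe sets, 177 of the 16010 without a gene symbol passed (1.11%), as did 88 of the 1814 with several symbols (4.85%) and 859 of the 23521 with 1 symbol (3.65%).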

How the results depend on the processing

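The 1085 genes that differed at day 21 became 1850 with the array set fitted by day, 523 on narrow and 1901 on wide arrays alone, 653 with the 6 day 21 arrays alone, 462 at an adjusted p under 0.01 and 178 at 2-fold or more. The narrow and wide fits hold 1 array of a genotype, assumed to vary like the other groups. Scaling, filters on level, other limma options and another probe set rule gave 995 to 1382 genes, quantile normalization within each set 1130 and genes off chromosomes 8 and 11 gave 765. Leaving out each day 21 array gave 659 to 972 genes. The 412 changes from day 0 became 871 by day and 811 on wide arrays, and 257 (without Pax7-/- replicate 2) to 591 with an array left out. The 202 changes from day 7 became 473 and 337, and 96 (without Pax7+/+ replicate 3, or Pax7-/- replicate 1) to 307 (without Pax7+/+ replicate 2), with 102 and 134 without Pax7-/- replicates 3 and 2. Without the array set limma called 0 for each of the 3 counts (539, 260 and 399 at an unadjusted p under 0.05). Same-numbered day 21 arrays correlated by 0.193, 0.231 and -0.051 after the fit. The labels give these samples only a shared number, and so few correlations cannot show whether they were paired. With a replicate block the counts were 627, 151 and 0 (2056 at an unadjusted p under 0.05 for the last). Of 147 named genes that passed, 88 passed with any 1 array left out, and in the alternatives run each kept its sign except Hexa, at 0.13 without the array set. With the mean over the probe sets of a gene 7 of the 147 did not pass, among them Gart, Mrpl10, Sall4, Krt18, Col5a1 and Ndrg1. The causes were not tested. The number of arrays, and probe sets with signal near the array median, limit what could be called.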
